A study of Mus musculus with 6 samples.

Results

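Matrix metalloproteinases (MMPs) and their tissue inhibitors (TIMPs) were examined in CX3CR1-EGFP+ osteoclast precursors. The genes were chosen by symbol, as 7 proteases (*Mmp8*, *Mmp9*, *Mmp12*, *Mmp13*, *Mmp14*, *Mmp19* and *Mmp25*) and 3 inhibitors (*Timp1*, *Timp2* and *Timp3*), which are 10 of the 24346 gene symbols measured. All 10 were found in the tables of all 6 mice. The cells were sorted as EGFP+ cells from calvarial bone marrow of CX3CR1-EGFP knock-in reporter mice. In these the *Cx3cr1* promoter drives EGFP in cells of the monocyte lineage. All 6 mice had an injection of lipopolysaccharide (LPS) into the periosteum of the calvaria at 20 mg/kg. Over 5 days, 3 mice received the JAK1-selective inhibitor ABT-317 by mouth (60 mg/kg, 2 doses per day) and 3 received vehicle on the same schedule. Strain background and age of the sequenced mice are not given in the sources used here. There were no mice without LPS in the comparison.

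MMPs are zinc-dependent enzymes that cleave collagens and other proteins of the extracellular matrix, and most are made as inactive precursors. TIMPs bind the active site of MMPs and block it, so proteolysis depends on the amounts of both. In bone, MMP-9 and the membrane-anchored MMP-14 are known from osteoclasts and their precursors, MMP-13 from osteoblasts and chondrocytes, and MMP-8 from the granules of neutrophils.

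The values were FPKM (fragments scaled to transcript length and to the mapped total), which are scaled by transcript length and can be compared between genes. Sequencing depth is unknown, and low values did not settle it. In 15 pairs of libraries, each with 2642 to 2961 genes of low value, no ratio bin held more than 39 genes. Vehicle-treated mouse 3 stood apart. In that mouse 255 of the 11301 tested genes differed more than 2-fold from both other vehicle-treated mice, against 54 and 63 for vehicle-treated mice 1 and 2 and 60 to 65 for the JAK inhibitor-treated mice. Values without it are therefore given for the MMP and TIMP genes, and for some of the other genes and lists.

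The label of the cells was compared with their markers. *Csf1r*, the receptor for macrophage colony-stimulating factor, had an FPKM of 355 to 422 over the 6 mice. *Cx3cr1* had 15.5 to 36.1, with its lowest value in vehicle-treated mouse 3. Whether the knock-in changed the level of *Cx3cr1* was not tested. Transcripts of some neutrophil genes were abundant too, and others were not. *Cxcr2* had an FPKM of 2.955 to 11.5, and *Ly6g* was not among the symbols measured. *S100a8*, a calcium-binding protein of neutrophils and monocytes, had an FPKM of 4970.4 to 15469, and *Mpo*, the peroxidase of early granules, had 1649.6 to 6106. Of the osteoclast genes, *Acp5* had 90.7 to 383 and *Ctsk* had 7.55 to 168, and *Calcr*, which encodes the calcitonin receptor, was listed at 0 in every mouse.

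Promoter sequences of the 3 genes whose groups did not overlap are shown to set them side by side. They were taken from RefSeq on GRCm38.p6, 300 bases each, and 8 of the 10 genes had an entry. Coordinates are chr14:54431348-54431647 (plus strand) for *Mmp14*, chr9:7558179-7558478 (plus strand) for *Mmp8* and chr11:118355362-118355661 (minus strand) for *Timp2*. The *Timp2* window lies wholly inside the gene as GENCODE places it, since the 2 annotations start it at different bases. Capitals mark matches, on either strand, to the letters TGANTCA (AP-1), TTCNNNGAA (STAT), TTGCNNAA (C/EBP) or GAGGAAG (PU.1), of which no 2 matches overlapped.
Mmp14: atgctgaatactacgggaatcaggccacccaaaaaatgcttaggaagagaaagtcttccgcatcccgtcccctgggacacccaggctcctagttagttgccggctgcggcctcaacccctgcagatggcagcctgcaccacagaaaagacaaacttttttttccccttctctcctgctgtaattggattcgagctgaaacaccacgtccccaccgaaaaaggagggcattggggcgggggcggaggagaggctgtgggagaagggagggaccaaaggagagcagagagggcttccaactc
Mmp8: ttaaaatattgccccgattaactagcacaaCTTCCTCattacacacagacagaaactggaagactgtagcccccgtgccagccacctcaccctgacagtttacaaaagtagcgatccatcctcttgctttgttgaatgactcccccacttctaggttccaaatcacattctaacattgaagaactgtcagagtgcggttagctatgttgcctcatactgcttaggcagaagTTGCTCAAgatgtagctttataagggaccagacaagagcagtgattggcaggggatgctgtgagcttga
Timp2: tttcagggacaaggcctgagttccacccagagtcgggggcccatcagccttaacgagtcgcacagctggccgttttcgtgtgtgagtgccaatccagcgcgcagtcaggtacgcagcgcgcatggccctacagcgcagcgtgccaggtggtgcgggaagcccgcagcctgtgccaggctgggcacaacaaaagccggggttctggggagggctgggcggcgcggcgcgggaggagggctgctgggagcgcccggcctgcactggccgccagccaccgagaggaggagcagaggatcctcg
The *Mmp8* window held 1 match to the PU.1 letters and 1 to the C/EBP letters, whereas the windows of *Mmp14* and *Timp2* held none of the 4. Among all 32851 promoters in the table, the PU.1 letters were found in 13.6%, the C/EBP letters in 10.8%, the STAT letters in 8.30% and the AP-1 letters in 7.81%. No window of the 8 genes held the STAT letters. The AP-1 letters were found in windows of *Mmp12* and *Mmp13*, which were both at or near 0 in these cells. Another window of *Mmp12* also held the PU.1 and the C/EBP letters, and that of *Mmp25* the PU.1 letters. A match is a run of letters and not a measured binding site.

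Of the 10 genes, 6 reached an FPKM of 1 in at least 1 mouse and were tested (*Mmp8*, *Mmp9*, *Mmp14*, *Mmp19*, *Timp1* and *Timp2*). *Timp1* did so only in vehicle-treated mouse 3. At an adjusted p under 0.05 in limma, 0 of the 6 differed between the groups, against 15 of all 11301 tested genes (0.133%). At an unadjusted p under 0.05, 4 of the 6 were lower with the JAK inhibitor, against 9.4% of the tested genes, and 0 were higher, against 6.57%. All 3 JAK inhibitor-treated mice lay below all vehicle-treated mice for 3 of the 6, against 12.1% of the tested genes, and above them for 0, against 9.92%. Without vehicle-treated mouse 3, of the 5 genes still tested 3 were lower at an unadjusted p under 0.05, against 8.12% of the 11130 genes tested then, and 3 were lower without overlap, against 16.8%. Genes chosen with earlier results known cannot serve as a test of these shares.

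**Figure D1:**
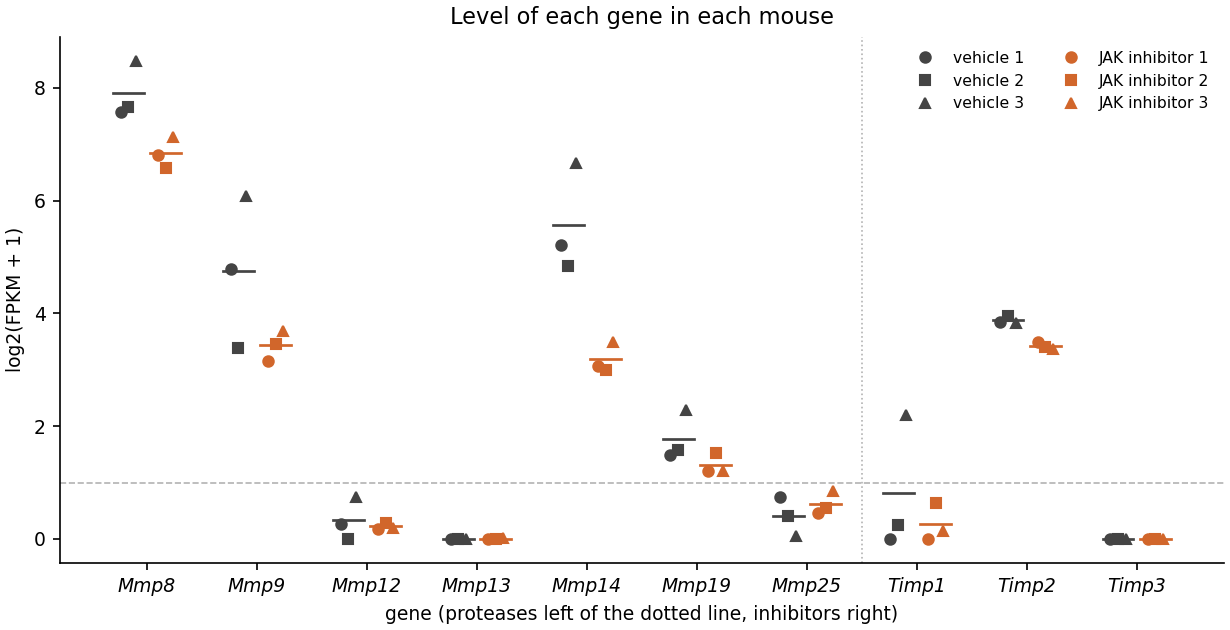
Level of each gene on the log2(FPKM + 1) scale in each of 6 mice. Points are mice, short lines are means of 3 mice, and the dashed line is an FPKM of 1, the filter for testing. *Mmp8*, *Mmp14* and *Timp2* separate the groups, and 4 genes lie below the dashed line in every mouse.

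*Mmp14* encodes MT1-MMP, a collagenase anchored in the cell membrane that also activates the MMP-2 precursor. It lies on chromosome 14 from 54431612 to 54445364 (GENCODE M21 on GRCm38, the build the authors call mm10), on the plus strand, with no other annotated gene overlapping it. Its FPKM was 36.1, 27.5 and 101 in vehicle-treated mice 1 to 3 and 7.34, 6.997 and 10.3 in JAK inhibitor-treated mice 1 to 3. All 3 vehicle-treated mice were above all 3 JAK inhibitor-treated mice, with vehicle-treated mouse 3 far above the other two. The group means were 54.9 ± 40.2 (SD, n = 3) and 8.21 ± 1.82 (SD, n = 3), a ratio of 6.68, or 3.87 without vehicle-treated mouse 3. On the log2(FPKM + 1) scale, which understates changes of low values, the fold change was -2.39 (SE 0.40, 95% confidence interval -3.30 to -1.47, limma adjusted p = 0.0726). An exact permutation test (2-sided) gave p = 0.1, which is the lowest possible p for 3 against 3 mice. Without vehicle-treated mouse 3 the log2 fold change was -1.84, and the adjusted p in limma was 0.00674. It was 0.0257 without vehicle-treated mouse 2 and 0.0244 with library weights, and over all alternatives it ranged from 0.00674 to 0.270. Whether *Mmp14* passed the adjusted threshold thus depended on single mice and on the model.

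*Mmp8* encodes neutrophil collagenase, which is stored in granules and cleaves type I collagen. It is on chromosome 9, from 7558456 to 7568485 on the plus strand, with no overlapping gene. Its FPKM was 189, 199.97 and 356 in vehicle-treated mice 1 to 3 and 110.5, 94.9 and 139 in JAK inhibitor-treated mice 1 to 3. The groups did not overlap, and vehicle-treated mouse 3 was highest. Vehicle-treated mice averaged 248 (SD 93.6, n = 3) and JAK inhibitor-treated mice 115 (SD 22.4, n = 3). The log2 fold change was -1.06 (SE 0.23, 95% confidence interval -1.59 to -0.53, limma adjusted p = 0.109), and the exact permutation test gave p = 0.1. Without vehicle-treated mouse 3 it was -0.77, with an adjusted p of 0.0455 in limma, and the adjusted p ranged from 0.0233 to 0.309 over the alternatives. *Mmp8* made up 67.4% to 86.6% of the summed FPKM of the 7 proteases in single mice.

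*Mmp9* encodes gelatinase B, which cleaves denatured collagen and is made by osteoclasts, macrophages and neutrophils. It is on chromosome 2, from 164940780 to 164955850 on the plus strand. Its FPKM was 26.8, 9.42 and 66.9 in vehicle-treated mice 1 to 3 and 7.89, 9.94 and 11.9 in JAK inhibitor-treated mice 1 to 3. Vehicle-treated mouse 2 lay within the range of the JAK inhibitor-treated mice, so the groups overlapped, and the vehicle-treated mice spread over a wide range. The log2 fold change was -1.32 (SE 0.54, limma adjusted p = 0.282), with p = 0.3 in the exact permutation test. It was -0.66 without vehicle-treated mouse 3 (limma adjusted p = 0.453) and -2.01 without vehicle-treated mouse 2 (limma adjusted p = 0.0396), and the adjusted p ranged from 0.0396 to 0.509 over the alternatives.

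*Mmp19*, a protease of basement membrane proteins, was expressed at a low level. Its FPKM was 1.79, 1.99 and 3.86 in vehicle-treated mice and 1.31, 1.86 and 1.3 in JAK inhibitor-treated mice. JAK inhibitor-treated mouse 2 lay above vehicle-treated mouse 1, so the groups overlapped. The log2 fold change was -0.47 (SE 0.25, limma adjusted p = 0.406), or -0.22 without vehicle-treated mouse 3. The gene *Tmem198b* overlaps *Mmp19* on the other strand and had an FPKM of 2.54 to 5.26. The methods name a stranded library kit and the labels an unstranded one, so reads from overlapping genes may not have been told apart.

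The remaining proteases did not reach 1 FPKM in any mouse and were not tested. *Mmp12*, the elastase of macrophages, had 0 to 0.682, highest in vehicle-treated mouse 3. *Mmp25*, a protease anchored in the membrane of leukocytes, had 0.034 to 0.809, lowest in vehicle-treated mouse 3. *Mmp13*, a collagenase of osteoblasts and chondrocytes, was listed at 0 in 5 mice and at 0.009 in JAK inhibitor-treated mouse 3.

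*Timp2* inhibits MMPs and, with MMP-14, binds the MMP-2 precursor at the cell surface. It is on chromosome 11, from 118301069 to 118355740 on the minus strand, where *Cep295nl*, a symbol not found among the values, overlaps it on the same strand, so its reads may not all be its own. Its FPKM was 13.4, 14.5 and 13.1 in vehicle-treated mice 1 to 3 and 10.3, 9.60 and 9.29 in JAK inhibitor-treated mice 1 to 3. The 3 mice of each group were close to each other, the groups did not overlap, and vehicle-treated mouse 3 was the lowest of its group. Vehicle-treated mice averaged 13.7 (SD 0.697, n = 3) and JAK inhibitor-treated mice 9.74 (SD 0.526, n = 3). The log2 fold change was -0.45 (SE 0.12, 95% confidence interval -0.72 to -0.18, limma adjusted p = 0.142), and the exact permutation test gave p = 0.1. Unlike that of the 4 tested proteases, it was not smaller without vehicle-treated mouse 3 (-0.48, limma adjusted p = 0.162). It did not pass the adjusted threshold under any alternative.

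*Timp1*, which binds the MMP-9 precursor, was listed at 0 in vehicle-treated mouse 1 and had 0.185 and 3.61 in vehicle-treated mice 2 and 3. In JAK inhibitor-treated mice 1 to 3 it had 0, 0.564 and 0.103. Vehicle-treated mouse 3 gave nearly all of its group mean, and without that mouse *Timp1* did not reach the filter and its direction turned, with a vehicle mean of 0.416 times the JAK inhibitor mean. The log2 fold change was -0.55 (SE 0.53, limma adjusted p = 0.658). *Timp3*, which is bound to the matrix, was listed at 0 in every mouse. *Timp1* overlaps *Syn1* and *Timp3* overlaps *Syn3*, each on the opposite strand, and both *Syn* genes were below an FPKM of 1 in all 6 mice.

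**Figure D2:**
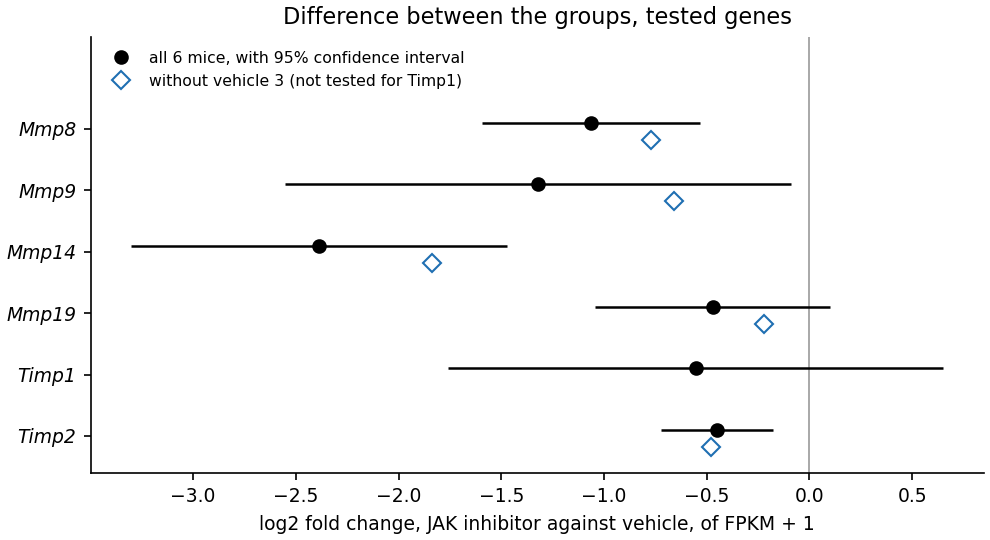
Log2 fold change of FPKM + 1, JAK inhibitor against vehicle, for the 6 tested genes. Black points and bars are estimates and 95% confidence intervals from limma over 6 mice, and open diamonds are estimates without vehicle-treated mouse 3. *Mmp14* has the lowest value (-2.39, or -1.84 without that mouse).

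The order of levels differed between the groups. With vehicle, mean FPKM was highest for *Mmp8*, then *Mmp14*, *Mmp9*, *Timp2*, *Mmp19* and *Timp1*. *Mmp14* and *Mmp9* overlapped in their ranges, as did *Mmp9* and *Timp2*, and *Mmp19* and *Timp1*. With the JAK inhibitor the order was *Mmp8*, *Mmp9*, *Timp2*, *Mmp14* and *Mmp19*. *Mmp9*, *Timp2* and *Mmp14* had means of 9.91, 9.74 and 8.21, and neighbours in that order overlapped. *Mmp8* was above every other gene in all 6 mice.

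Proteases and inhibitors were then set side by side within each mouse. Mean log2(FPKM + 1) over the 7 proteases was 2.87, 2.55 and 3.47 in vehicle-treated mice 1 to 3 and 2.12, 2.198 and 2.37 in JAK inhibitor-treated mice 1 to 3. Over the 3 inhibitors it was 1.28, 1.40 and 2.01 with vehicle and 1.17, 1.35 and 1.17 with the JAK inhibitor. The groups did not overlap for the proteases and overlapped for the inhibitors, whereas in summed FPKM neither overlapped. The group difference, JAK inhibitor minus vehicle, was -0.73 for the proteases and -0.33 for the inhibitors, or -0.48 and -0.11 without vehicle-treated mouse 3. The protease mean minus the inhibitor mean averaged 1.40 in vehicle-treated mice (SD 0.22, n = 3) and 1.001 in JAK inhibitor-treated mice (SD 0.18, n = 3), and the groups overlapped. The group difference of that measure was -0.40, or -0.86 with a filter of 1 FPKM in 3 mice and -0.21 with a pseudocount of 0.1. The median difference of log2 levels was -0.47 over the 7 proteases and -0.45 over the 3 inhibitors, or -1.19 and -0.50 over those tested. For the tested proteases it was -0.71 with vehicle-treated mouse 3 left out. *Timp1* was tested only through that mouse, and *Timp2*, the only inhibitor tested without it, was then at -0.48. The median log2 fold change of all tested genes was near 0 (-0.0035). With the JAK inhibitor 5 proteases had a lower mean and 2 a higher one, and of the inhibitors 2 had a lower mean and *Timp3* was at 0 throughout. Without vehicle-treated mouse 3 *Mmp12* and *Timp1* turned to a higher mean, which gave 4 lower and 3 higher proteases and 1 lower and 1 higher inhibitor.

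Ratios of FPKM to *Timp2* were formed after the values were seen, for the 4 proteases with an FPKM of at least 1 in every mouse. *Mmp14* over *Timp2* was 2.68, 1.90 and 7.70 in vehicle-treated mice 1 to 3 and 0.711, 0.729 and 1.11 in JAK inhibitor-treated mice 1 to 3. The groups did not overlap, and *Mmp14* exceeded *Timp2* in every vehicle-treated mouse but only in mouse 3 of the JAK inhibitor group. The ratio of *Mmp8* to *Timp2* was 9.88 to 15.0 with the JAK inhibitor and 13.8 to 27.1 with vehicle. For *Mmp8*, *Mmp9* and *Mmp19* the ratios of the groups overlapped. The share of *Mmp14* in the summed FPKM of the proteases was 11.5% to 19.1% with vehicle and 5.75% to 6.30% with the JAK inhibitor.

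**Figure D3:**
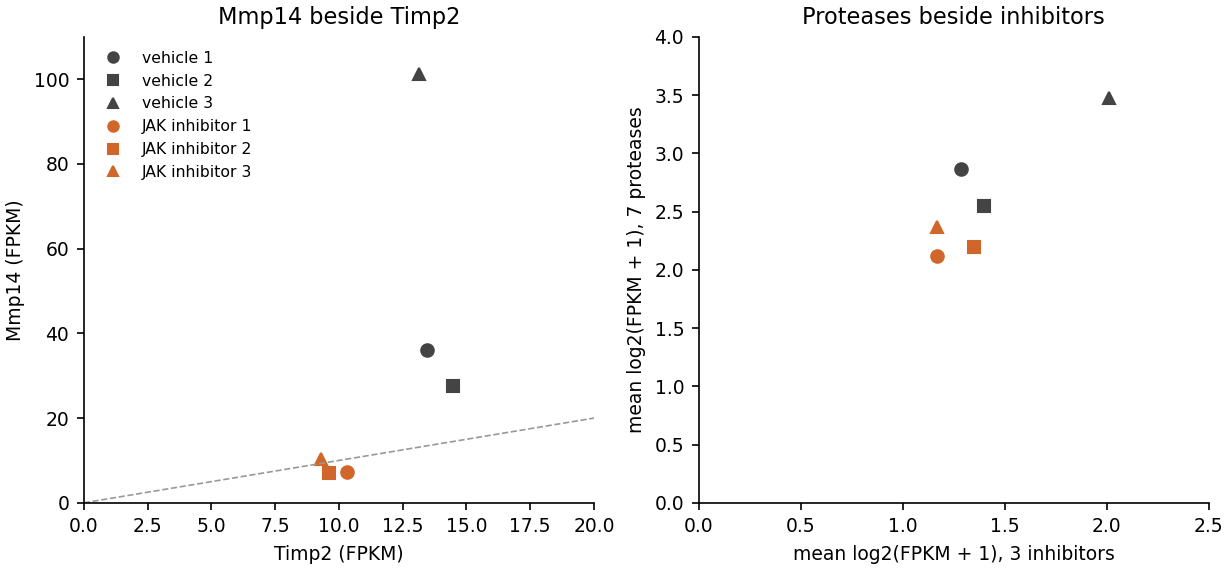
Left, FPKM of *Mmp14* against FPKM of *Timp2* in each mouse, with a dashed line where both are equal. Right, mean log2(FPKM + 1) of 7 proteases against that of 3 inhibitors in each mouse. Vehicle-treated mice lie above the line, with *Mmp14* over *Timp2* at 1.90 to 7.70.

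The other 18 genes of the family had an FPKM of at most 1.33. Of these, 16 did not reach 1 FPKM in any mouse, and *Mmp1b*, *Mmp7*, *Mmp10*, *Mmp16*, *Mmp20* and *Timp4* were listed at 0 in every mouse. *Mmp2*, the gelatinase that MMP-14 activates, was the most abundant, with 0.945, 0.989 and 1.33 in vehicle-treated mice and 0.256, 0.506 and 0.105 in JAK inhibitor-treated mice. Its groups did not overlap, and its log2 fold change was -0.70 (SE 0.23, limma adjusted p = 0.202), but it reached the filter only through vehicle-treated mouse 3. *Mmp8* belongs to a group of 10 MMP genes within 427 kb of chromosome 9, of which the other 9 were below an FPKM of 1 in every mouse. Among these, *Mmp27* starts 2.91 kb past the end of *Mmp8* on the same strand. *Mmp27* had an FPKM of 0.33, 0.41 and 0.843 with vehicle and 0.017, 0.033 and 0.064 with the JAK inhibitor. Its groups did not overlap, and it was singled out after its values were seen, as was *Mmp23*, which lay above vehicle without overlap (0 in all 3 vehicle-treated mice, against 0.205, 0.039 and 0.075). Whether the reads of *Mmp27* came from *Mmp8* transcripts was not tested.

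**Figure D4:**
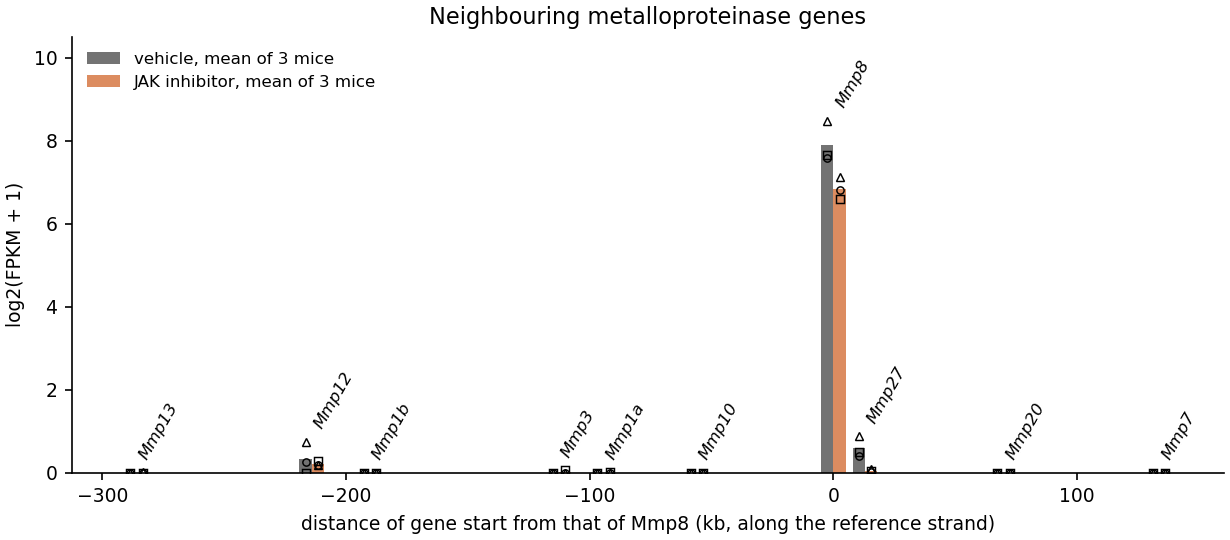
Log2(FPKM + 1) of 10 MMP genes on chromosome 9 by the distance of their start from that of *Mmp8*. Bars are means of 3 mice and open symbols are single mice. *Mmp8* stands alone, and *Mmp27* next to it stays below an FPKM of 1.

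Genes that act on MMPs were described from lists, whose counts stand against 9.4% of all tested genes lower and 6.57% higher at an unadjusted p under 0.05 (8.12% and 5.39% without vehicle-treated mouse 3). Of 7 genes for MMP activation, docking and clearance, all were tested, 2 were lower and 1 higher at an unadjusted p under 0.05, and the median log2 fold change was -0.07. *Lcn2*, whose product binds MMP-9, had an FPKM of 933, 699 and 1413 in vehicle-treated mice and 351, 219.7 and 375 in JAK inhibitor-treated mice. Its groups did not overlap, and its log2 fold change was -1.66 (SE 0.27, limma adjusted p = 0.0665), or -1.39 without vehicle-treated mouse 3 (limma adjusted p = 0.0229). *Furin*, which cleaves the MMP-14 precursor, had 9.19, 9.75 and 12.4 with vehicle and 6.15, 4.44 and 6.25 with the JAK inhibitor, a log2 fold change of -0.79 (SE 0.17, limma adjusted p = 0.109). *Itgb1*, the integrin beta chain of collagen and fibronectin receptors, was 0.25 higher on the log2 scale, and its groups overlapped (limma adjusted p = 0.299). Its unadjusted p was 0.102 and the list median -0.04 without vehicle-treated mouse 3.

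Plasmin can activate MMP precursors. Of 10 genes of the plasminogen system 6 were tested, 2 were lower at an unadjusted p under 0.05, 0 were higher, and the median log2 fold change was -0.21. These were *Serpine2*, an inhibitor of plasminogen activators (-0.80, limma adjusted p = 0.191), and *Plgrkt*, a plasminogen receptor (-0.25, limma adjusted p = 0.302). They were -0.45 and -0.16 without vehicle-treated mouse 3, and the unadjusted p of *Plgrkt* was then 0.129. *Anxa2* was the most abundant, with FPKM of 1199.7 in the mean of the vehicle-treated mice (SD 53.3, n = 3) and 1071 in that of the JAK inhibitor-treated mice (SD 84.8, n = 3). *Plat* was listed at 0 in every mouse.

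Of 8 matrix substrates only *Fn1* and *Spp1* were tested. *Fn1*, which encodes fibronectin, had an FPKM of 123, 137 and 214 in vehicle-treated mice and 78.8, 116 and 101 in JAK inhibitor-treated mice, a log2 fold change of -0.65 (limma adjusted p = 0.191), or -0.41 without vehicle-treated mouse 3. *Spp1*, which encodes osteopontin, had 35.2, 37.4 and 247 with vehicle and 27.0, 17.2 and 29.8 with the JAK inhibitor. Its log2 fold change of -1.48 (limma adjusted p = 0.300) was -0.57 without vehicle-treated mouse 3. The 5 collagen genes were below an FPKM of 1 in every mouse, and *Eln* was listed at 0. Among the collagens *Col1a1*, named after its values were seen, lay above vehicle without overlap. It had 0.037, 0.076 and 0.033 with vehicle and 0.184, 0.131 and 0.086 with the JAK inhibitor.

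Of 14 cytokines and factors known to induce MMPs, 12 were tested, 5 were lower and 0 higher at an unadjusted p under 0.05, and the median log2 fold change was -0.24. *Jun* and *Fos*, subunits of AP-1, had log2 fold changes of -0.90 and -1.07 (limma adjusted p = 0.109 and 0.122). *Fosl2*, another subunit, named after its values were seen, had 0.28 (limma adjusted p = 0.481), above vehicle without overlap. *Fos* had an FPKM of 95.4, 142 and 156 in vehicle-treated mice and 41.2, 86.0 and 63.2 in JAK inhibitor-treated mice, without overlap. *Socs3*, a feedback inhibitor of JAK signaling, had 19.9, 9.48 and 52.3 with vehicle and 8.30, 7.74 and 9.28 with the JAK inhibitor. *Stat3* had a log2 fold change of -0.35 (limma adjusted p = 0.168). The fifth gene, *Il1b*, named here after its values were seen, had -0.45 with overlapping groups. With vehicle-treated mouse 3 left out, its unadjusted p was 0.0803 and the list median -0.15.

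Markers of cell types were counted too, and fewer cells of a type cannot be told apart from less RNA per cell in sorted bulk samples. Of 10 osteoclast markers 9 were tested and 6 were lower at an unadjusted p under 0.05 (among them *Acp5*, *Ctsk*, *Dcstamp*, *Atp6v0d2* and *Ocstamp*), against 9.4% of all tested genes, with a median log2 fold change of -1.12, or -0.71 without vehicle-treated mouse 3, where *Car2*, named after its values were seen, was higher (0.28). Their summed FPKM was 359, 275 and 707 in vehicle-treated mice 1 to 3 and 213, 209 and 211 in JAK inhibitor-treated mice 1 to 3, without overlap, and *Acp5* was the most abundant. As for *Mmp14* and *Mmp9*, vehicle-treated mouse 3 had the highest sum. *Dcstamp* and *Ocstamp* reached the filter only through vehicle-treated mice, the group where they were high, so their calls cannot serve as a test. Of 10 macrophage markers 8 were tested and 4 were lower (*C1qa*, *C1qb*, *C1qc* and *Mertk*), with a median of -1.11. It was 6 lower and 1 higher without vehicle-treated mouse 3, with *Mrc1* and *Cd163* added as lower and *Vcam1* as higher, all named after their values were seen, against 8.12% and 5.39% of the genes tested then. Their summed FPKM was 427, 432 and 254 with vehicle and 232, 139 and 160.2 with the JAK inhibitor, and *C1qb* was the most abundant. Here vehicle-treated mouse 3 was the lowest of its group, unlike for *Mmp14*.

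Neutrophil lists stand beside *Mmp8* and *Mmp9*. Their counts stand against 9.4% of all tested genes lower and 6.57% higher. Of 10 mature neutrophil markers 9 were in the tables and tested, 2 were lower (*Il1r2* and *Cxcr2*) and 1 was higher (*Cd177*) at an unadjusted p under 0.05, with a median of -0.18, which turned to 0.04 without vehicle-treated mouse 3. Their summed FPKM was 13310, 9858 and 20623 in vehicle-treated mice 1 to 3 and 13309, 6488 and 11086 in JAK inhibitor-treated mice 1 to 3, with overlap, and *S100a8* was the most abundant. Of 10 genes of neutrophil precursor granules 5 were higher (*Elane*, *Mpo*, *Prtn3*, *Camp* and *Fcnb*, of which *Elane* and *Prtn3* are named after their values were seen) and 2 were lower (*Lcn2* and *Ms4a3*), with a median of 0.60, or 0.39 without vehicle-treated mouse 3. Their summed FPKM was 10802, 11330 and 7390 with vehicle and 15190, 14473 and 14408 with the JAK inhibitor, without overlap, and *Mpo* was the most abundant. *Camp*, which like *Mmp8* is stored in specific granules, had 264, 289 and 182 with vehicle and 1097, 469.6 and 824 with the JAK inhibitor, so its groups lay in the opposite order to those of *Mmp8*. Other genes of specific granules differed from it, as the groups of *Lcn2* lay in the same order as those of *Mmp8*, and *Ltf* and *Ngp*, named after their values were seen, overlapped between the groups. The part of these cell types in the levels of MMPs and TIMPs was not tested.

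**Figure D5:**
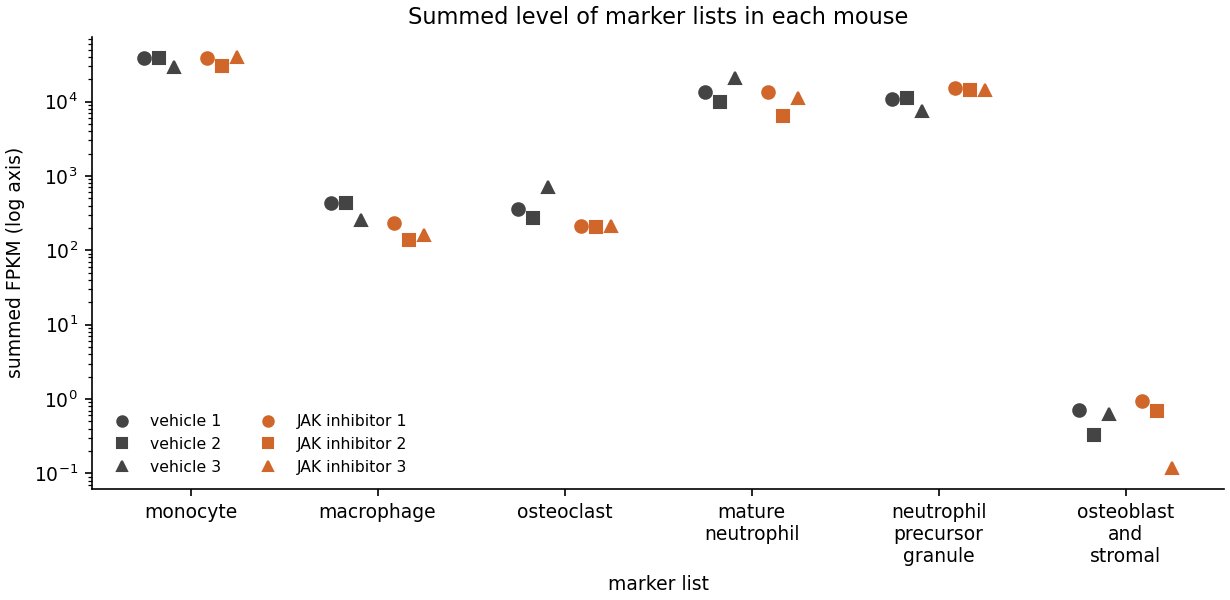
Summed FPKM of 6 marker lists in each mouse on a log axis. Points are mice. Osteoclast and macrophage sums are lower and precursor granule sums higher in JAK inhibitor-treated mice without overlap, and stromal markers sum to less than 1.

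The remaining lists differed in direction from each other. Their counts stand against 9.4% of all tested genes lower and 6.57% higher (8.12% and 5.39% without vehicle-treated mouse 3). Of 10 monocyte markers 3 were lower (*Cd14*, *Itgam* and *Ms4a6c*), with a median of -0.01, and *Lyz2* was the most abundant. All 10 osteoblast and stromal markers were below an FPKM of 1 in every mouse, with *Bglap* the most abundant and *Sp7*, *Pdgfra*, *Dcn* and *Lum* at 0. All 5 B cell markers were below 1, with *Cd79a* the most abundant and *Ms4a1*, *Ebf1* and *Pax5* at 0. Of 8 endothelial markers 3 were tested and *Pecam1* was higher (0.75). By sign 3 endothelial markers were higher and 0 lower, with a median of 0.42, and the summed FPKM overlapped between the groups. Of 6 megakaryocyte markers 2 were tested, *Pf4* was lower (-1.82), and the median was -1.17. Of the megakaryocyte markers below an FPKM of 1, *Gp9* lay above vehicle without overlap and *Gp1bb* below, both named after their values were seen. Of 6 T and NK cell markers 5 were tested and *Nkg7* was higher (0.92). By sign of the log2 fold change 3 were higher and 2 lower, with a median of 0.16. *Nkg7* made up 99.4% of the summed FPKM of that list, which lay above vehicle without overlap. Of 5 erythroid markers *Hba-a1* (2.86) and *Klf1* (1.25) were higher. With vehicle *Hba-a1* was at most 0.064, and JAK inhibitor-treated mouse 3 had 38.6, against 2.64 and 1.96 in the other two. Besides, of 5 dendritic cell markers 4 were tested and *Cd209a* was higher (1.16). By sign of the log2 fold change 3 were lower and 1 higher, with a median of -0.07. Without vehicle-treated mouse 3 only *Siglech* of this list had an unadjusted p under 0.05. It was lower (-0.86) and was named after its values were seen. *Flt3* was the most abundant dendritic cell marker. These counts are at an unadjusted p under 0.05, and over the 6 mice 0 genes of any marker list passed the adjusted threshold in limma. Without vehicle-treated mouse 3 it was passed by *C1qa*, *C1qb*, *Ctsk*, *Il1r2*, *Elane*, *Lcn2*, *Fcnb* and *Nkg7* (limma adjusted p of 0.00855 to 0.0455). Then *Pecam1* was at 0.48, *Nkg7* at 0.57 and *Cd209a* at 0.72, and *Itgam* and *Cd209a* no longer had an unadjusted p under 0.05.

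Genes with the pattern most like *Mmp8* and *Timp2* were sought among tested genes with a mean FPKM of at least 5, by Pearson's r of log2(FPKM + 1) over the 6 mice. For *Mmp8* these were *Fgr* (r = 0.997), *Atp6v0c-ps2* (r = 0.995) and *Sap30bp* (r = 0.994). *Fgr*, a kinase of myeloid cells, ranged only from 94.7 to 118, so a close r does not mean a change of like size. For *Timp2* they were *Cep85* (r = 0.986), *Snord35a* (r = 0.984) and *Nme1* (r = 0.982). *Snord35a* had 19.9, 33.4 and 12.7 in vehicle-treated mice and 0 in every JAK inhibitor-treated mouse, so it reached the filter only through vehicle. The 6 points share the split into groups, and the values describe these mice without a test.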

How the data were processed

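RNA-Seq of EGFP+ cells from 3 JAK inhibitor-treated and 3 vehicle-treated mice was analyzed, with groups and replicate numbers from the sample titles. The authors deposited FPKM, 1 table per mouse with 24346 gene symbols. The submitters' processing notes name TopHat2 2.0.13, Bowtie2 2.2.3, SAMtools 0.1.19, Cufflinks 2.2.1 and the build mm10. The labels name a SMART-Seq HT kit with a Nextera library, whereas the study's methods name a TruSeq Stranded mRNA kit. Doses are those of the methods. Read counts were not used here, and depth is unknown.

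The 11301 genes that reached 1 FPKM in any mouse were compared as log2(FPKM + 1) in limma 3.58.1 (R 4.3.3), using empirical Bayes moderation with a mean trend and p-values adjusted by Benjamini-Hochberg over all of them, with no replicate block. Single genes had an exact 2-sided permutation test. The model was tested on simulated data. The members and lists were chosen with earlier results of these data known. Named are all 10 MMP and TIMP genes, from each list the most abundant gene and up to 4 with the smallest p among those with an unadjusted p under 0.05, markers at 0, and the 3 genes most like the most abundant protease and inhibitor. Positions are from GENCODE M21 and promoters from RefSeq. Alternatives were a pseudocount of 0.1, no filter, a filter of 1 FPKM in 3 mice, quantile normalization, median ratio scaling, no trend, library weights, a replicate block and each mouse left out. Counts of MMP and TIMP genes under these, and of lists without vehicle-treated mouse 3, were added after the values were seen. Permutation tests used SciPy 1.17.1, summaries pandas 2.3.3 with NumPy 2.4.6 under Python 3.11.15, and plots matplotlib 3.10.9.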

Additional observations from a re-analysis of the deposited data

How the results depend on the processing

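The direction of each of the 6 tested genes was kept in every alternative in which it was tested. Neither *Mmp19*, *Timp1* nor *Timp2* passed the adjusted threshold in any. *Timp1* was not tested with a filter of 1 FPKM in 3 mice or without vehicle-treated mouse 3, where its mean turned to higher with the JAK inhibitor. The log2 fold change of *Mmp14* passed it with library weights (-2.07), and with a mouse left out it lay between -2.76 and -1.84. For *Mmp8* the range with a mouse left out was -1.23 to -0.77, and for *Mmp9* it was -2.01 to -0.66. Passing with a mouse left out were *Mmp14* without vehicle-treated mouse 2 or 3, *Mmp8* without 3 and *Mmp9* without 2.

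Of all genes, 15 passed the adjusted threshold, against 2 without a filter, 34 with a filter of 1 FPKM in 3 mice, 2 without the trend and 63 with library weights. It was 3 to 95 with a mouse left out (95 without vehicle-treated mouse 2 and 94 without vehicle-treated mouse 3). With a filter of 1 FPKM in 3 mice, which keeps fewer genes, the protease difference was -1.31 and that of protease minus inhibitor means was -0.86. With a pseudocount of 0.1 the latter was -0.21, and the inhibitor difference was -0.49. Both are the same without a filter by construction. The cause of the other shifts was not tested.

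With the replicate number as a replicate block, 67 genes passed, among them *Mmp8* (-1.06) and *Mmp14* (-2.39), and no other tested MMP or TIMP gene. Over all tested genes same-numbered mice did not deviate together (r of -0.00016 to 0.054), and 2 of 6 mice correlated best with their own number. Mouse 3 was the highest of each group for *Mmp8*, *Mmp9* and *Mmp14* and the lowest of each for *Timp2*, but neither for *Mmp19* and *Timp1*. Whether same-numbered mice shared a sort or processing day is not known, and these values cannot decide it. Count models were left out because FPKM are not counts. Depth is unknown, so no counting error can be given for genes near 0.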
